A study of Mus musculus with 21 samples.

Results

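Fixed windows of 500 bp that held 12 to 20 CpGs in mouse sperm were described here, the densities at which the windows of this table went over from mostly methylated to mostly unmethylated DNA. The autosomes were cut into bins of 500 bp from their first base, and bins were chosen by the number of CpGs listed in the methylation table: a bin was kept when it had 12 to 20 listed CpGs of up to 19 reads each. This gave 91092 bins of 3818124 autosomal bins with a listed CpG (2.39%), which held 8.55% of the listed CpGs and 9.72% of the CpG reads. The material was nucleosome-associated DNA from spermatozoa of C57BL/6 mice, collected by swim-up, cut with micrococcal nuclease (MNase) and bisulfite converted. It was 1 library, and the other 20 samples of the series were not analysed here. With 1 library there was no replicate and no test, so spreads are given over bins or over the 19 autosomes, which describe variation within this library and not replicate error. The labels give neither the age nor the number of the mice, and a methylation table carries no expression markers, so the cell type rests on the label.

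Bisulfite turns unmethylated cytosine into uracil and leaves methylated cytosine as it is, so each read over a CpG shows whether that copy was methylated. In most of the mammalian genome CpGs are sparse and methylated, whereas CpG islands, found at many promoters, are dense in CpGs and unmethylated. During spermiogenesis protamines replace most histones, and the nucleosomes that remain in mouse sperm are known to lie preferentially at CpG-rich, unmethylated DNA. The library was made from MNase-cut nucleosomal DNA, so its read count over a CpG reflects how often that site was recovered as well as how well it was converted, aligned and listed.

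The methylation level of a bin is the methylated reads over all reads of its listed CpGs, pooled. A bin is called low below 20%, high above 80% and intermediate from 20 to 80%. The level chose the state, so state and level are given as descriptions. The upstream sequences of 5 genes whose start fell in such a bin are shown because they cover the 3 states: Hydin (low), S100z and Piwil1 (intermediate), Itga9 and Zap70 (high). Letters are from RefSeq, assembly GRCm38.p6, 5′ to 3′ on the gene's strand and ending at the base before the annotated start, with CpGs in capitals. Positions are those of the mm9 table, found by matching the spacing of the CpGs, and may be off by 1 base because the table does not say whether it counts from 0 or 1. They are chr8:112790627-112790876 on the plus strand for Hydin, chr13:96248611-96248860 on the minus strand for S100z, chr5:129241871-129242120 on the plus strand for Piwil1, chr9:118620560-118620809 on the plus strand for Itga9 and chr1:36835579-36835828 on the plus strand for Zap70.
Hydin: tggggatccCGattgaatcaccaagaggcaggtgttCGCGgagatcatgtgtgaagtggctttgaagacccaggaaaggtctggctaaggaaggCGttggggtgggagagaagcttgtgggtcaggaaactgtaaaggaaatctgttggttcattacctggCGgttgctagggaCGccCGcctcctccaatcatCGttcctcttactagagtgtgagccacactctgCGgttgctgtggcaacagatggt
S100z: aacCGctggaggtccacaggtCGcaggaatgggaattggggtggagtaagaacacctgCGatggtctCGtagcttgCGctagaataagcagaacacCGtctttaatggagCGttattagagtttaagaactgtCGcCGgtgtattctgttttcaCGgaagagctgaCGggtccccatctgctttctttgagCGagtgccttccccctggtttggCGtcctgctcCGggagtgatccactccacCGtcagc
Piwil1: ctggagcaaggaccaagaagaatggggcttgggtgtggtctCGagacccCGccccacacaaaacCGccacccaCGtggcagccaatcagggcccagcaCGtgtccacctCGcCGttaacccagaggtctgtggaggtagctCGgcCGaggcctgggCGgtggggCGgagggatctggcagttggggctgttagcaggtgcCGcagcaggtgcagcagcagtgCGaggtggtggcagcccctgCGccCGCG
Itga9: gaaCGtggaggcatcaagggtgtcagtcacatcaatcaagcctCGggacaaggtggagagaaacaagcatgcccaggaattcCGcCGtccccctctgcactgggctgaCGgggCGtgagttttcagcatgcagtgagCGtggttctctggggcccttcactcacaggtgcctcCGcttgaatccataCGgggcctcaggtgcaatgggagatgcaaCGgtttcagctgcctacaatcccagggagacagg
Zap70: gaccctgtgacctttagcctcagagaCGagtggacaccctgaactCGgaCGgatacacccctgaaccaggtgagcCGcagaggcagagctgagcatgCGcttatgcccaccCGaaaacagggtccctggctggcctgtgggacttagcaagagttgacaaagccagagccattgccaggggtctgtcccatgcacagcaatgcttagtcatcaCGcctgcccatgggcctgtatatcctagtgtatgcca

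Hydin encodes a protein of the central pair of the ciliary and flagellar axoneme. Its matched window, 250 bases before to 50 bases after the start, held 12 CpGs with 119 reads, of which 1 was methylated (0.840%, 95% Wilson interval 0.148 to 4.61%). Reads per CpG ran from 2 to 15, and the single methylated read lay 56 bases before the start. S100z encodes a calcium-binding protein of the S100 family, and 30 of the 84 reads on 16 CpGs of its window were methylated (35.7%, 26.3 to 46.4%). Methylated and unmethylated reads were mixed along it: 0 of 6 reads were methylated at 247 bases before the start, 3 of 4 at 192 bases, 3 of 5 at 117 bases, 0 of 4 at 36 bases and 4 of 10 at 7 bases. Piwil1 encodes a PIWI protein that binds piRNAs in male germ cells. In its window 30 of 106 reads on 18 CpGs were methylated (28.3%, 20.6 to 37.5%), and each of the 18 CpGs had at least 1 methylated read, with 1 of 7 reads at 177 bases before the start and 3 of 10 at 8 bases. Itga9 encodes an integrin alpha subunit, and all 61 reads on 10 CpGs were methylated (interval 94.1 to 100%). Zap70 encodes a tyrosine kinase of T-cell receptor signalling, and 50 of 52 reads on 9 CpGs were methylated (96.2%, 87.0 to 98.9%). These intervals, like all others given, cover counting error only, and neighbouring CpGs can be read by the same DNA fragment, so their reads are not independent.

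Of the 91092 bins, 16552 were low (18.2%, 17.9 to 18.4%), 27021 were intermediate (29.7%, 29.4 to 29.96%) and 47519 were high (52.2%, 51.8 to 52.5%). Among all 1639116 autosomal bins with at least 10 reads, 3.81% were low, 22.4% intermediate and 73.8% high. Bins with 1 to 11 listed CpGs and at least 10 reads were low in 1.15%, intermediate in 22.2% and high in 76.6%. Bins with over 20 listed CpGs were low in 88.5%, intermediate in 7.25% and high in 4.21%. The pooled level was 60.5% over the bins with 12 to 20 CpGs, against 86.0% in the sparser and 5.99% in the denser bins.

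The levels were spread over the whole range with most bins at its ends. Low bins had a median level of 4.88% (quartiles 1.94 and 9.76%), intermediate bins 55.0% (39.7 and 68.8%) and high bins 94.4% (90 and 97.4%). In steps of 5 points, 9.19% of the bins lay below 5%, 24.3% at 95% or above, and the smallest share, 1.75%, lay between 25 and 30%. There was no gap at the limits chosen. Between 19 and 20% lay 249 bins with 4.28 ± 1.62 reads per listed CpG, and between 20 and 21% lay 422 bins with 4.12 ± 1.60. Between 79 and 80% lay 925 bins with 3.29 ± 0.999 reads per listed CpG, and between 80 and 81% lay 586 bins with 3.45 ± 1.005 (SD over bins in each case). At the density limits, the pooled level was 77.0% in 38660 bins with 11 CpGs and 73.8% in 26949 bins with 12, and 30.7% in 2637 bins with 20 CpGs and 28.0% in 2272 bins with 21.

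Depth limited how firmly a single bin could be placed. The median number of CpG reads per bin was 61 in low bins, 50 in intermediate bins and 45 in high bins, and the fewest reads were 12 in each state. The Wilson interval lay entirely below 20% in 73.3% of the low bins, entirely between 20 and 80% in 16520 intermediate bins (61.1%) and entirely above 80% in 65.3% of the high bins. The median interval of an intermediate bin was 24.9 points wide.

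Within this narrow span of density the balance of states turned over. With 12 listed CpGs, 8.31% of bins were low, 28.8% intermediate and 62.9% high. With 17 CpGs the states were close to level, at 31.1% low, 31.4% intermediate and 37.6% high. With 18 CpGs low bins outnumbered high bins for the first time, at 39.5% low, 27.5% intermediate and 33.0% high, and with 20 CpGs 53.8% were low, 24.5% intermediate and 21.7% high. The intermediate share moved least, and was greatest, 31.5%, at 15 CpGs. Inside the low and high states the level shifted less than the share: the pooled level of low bins was 7.82% at 12 CpGs and 4.81% at 20, and that of high bins was 93.3% at 12 and 94.2% at 20. Intermediate bins had 55.3% at 12 CpGs and 45.0% at 20.

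**Figure D1:**
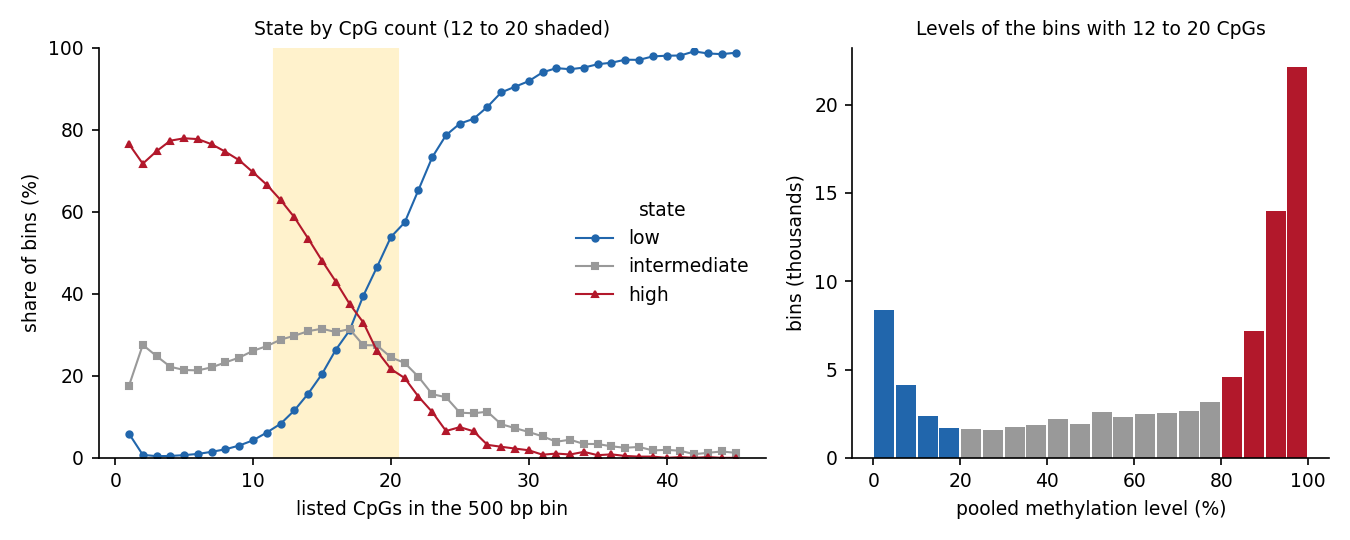
Left, share of 500 bp bins in each state (%) against the number of listed CpGs per bin, with 12 to 20 CpGs shaded: low bins pass high bins between 17 and 18 CpGs. Right, number of bins with 12 to 20 CpGs, on an axis in units of 1000 bins, by pooled methylation level in steps of 5 points: 24.3% lie at 95% or above and 9.19% below 5%.

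Every chromosome held bins of each state. Each of the 19 autosomes held 2766 to 7654 of the bins. The low share was 18.3 ± 2.40% (SD over autosomes), between 14.5% on chromosome 8 and 22.1% on chromosome 7. The intermediate share was 29.8 ± 2.06%, with its highest value, 34.8%, on chromosome 10, and the high share was 51.9 ± 2.63%.

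Low and intermediate bins carried more reads per listed CpG than high bins with the same number of CpGs. At 12 CpGs, low bins had 4.01, intermediate bins 3.63 and high bins 3.39 reads per listed CpG (SD over autosomes 0.167, 0.0801 and 0.0302). At 16 CpGs the values were 4.31 in low bins, 4.04 in intermediate bins and 3.42 in high bins, and at 20 CpGs 4.52, 4.46 and 3.44 in the same order. Low and intermediate bins thus had more reads per CpG at 20 than at 12 CpGs, while high bins stayed between 3.39 and 3.47 at every count. The ratio of low to high bins was 1.18 ± 0.05 at 12 CpGs and 1.32 ± 0.11 at 20 CpGs, and averaged 1.24 ± 0.04 over the 9 counts (SD over 19 autosomes). It was above 1 on each of the 19 autosomes at each count, and its average ran from 1.16 to 1.32 between autosomes. Intermediate over high bins averaged 1.18 ± 0.037, with 1.07 at 12 CpGs and 1.30 at 20. Single bins overlapped widely: 4.24 ± 1.60 reads per listed CpG in low bins, 3.86 ± 1.38 in intermediate bins and 3.41 ± 0.983 in high bins (SD over bins).

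Read coverage did not follow the level in a straight line. With equal weight to each CpG count, bins with levels of 0 to 10% had 4.28 ± 0.148 reads per listed CpG and bins of 10 to 20% had 4.22 ± 0.224 (SD over autosomes). Bins of 20 to 30% had 4.42 ± 0.296 and bins of 30 to 40% had 4.45 ± 0.233, means above those of both low classes, with spreads that overlap theirs. From there the means were lower at each step up to 90%, with 3.98 ± 0.141 at 50 to 60%, 3.53 ± 0.147 at 70 to 80% and 3.38 ± 0.069 at 80 to 90%, and bins of 90 to 100% had 3.44 ± 0.037. A CpG was listed with 1 read or more, so both the CpG count that chose the bins and the mean reads depend on coverage. CpGs with a single read made up 15.1% of the CpGs of low bins, 16.0% of those of intermediate bins and 18.3% of those of high bins.

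**Figure D2:**
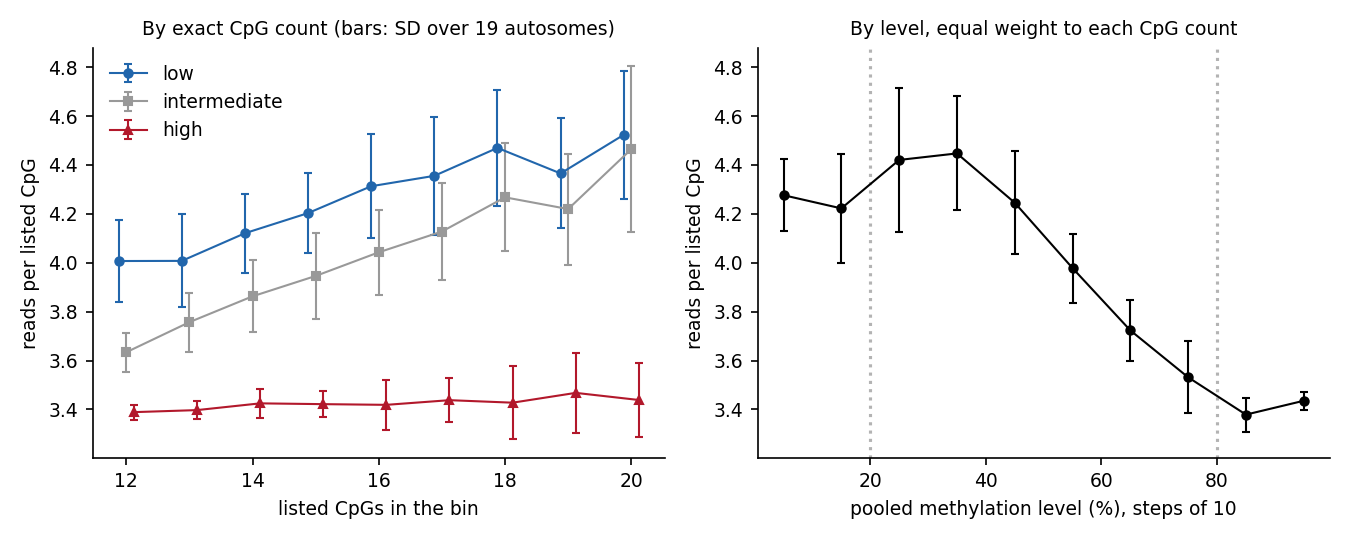
Reads per listed CpG against the listed CpGs per bin (left, by state) and against the pooled methylation level in steps of 10 points (right), as points with bars for the SD over 19 autosomes; the axis does not start at 0. High bins stay between 3.39 and 3.47 reads, low bins go from 4.01 at 12 CpGs to 4.52 at 20, and the means by level lie above 4.2 up to 50%.

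The state of a bin went with the state of the bins beside it. A neighbour was given a state when it had at least 10 reads, and both neighbours had one for 74.5% of low, 60.9% of intermediate and 54.2% of high bins. Of 12329 such low bins, 33.6% lay between 2 low bins, 49.5% between a low and an intermediate bin, 6.99% between a low and a high bin and 7.92% between 2 intermediate bins, while 8 bins (0.0649%) lay between 2 high bins. Of 25767 high bins, 74.4% lay between 2 high bins and 22.2% between an intermediate and a high bin. None lay between 2 low bins, and a limit of 3 counts allows a share of up to 0.0116% (Wilson upper bound 0.0149%). Of 16455 intermediate bins, 39.3% lay between 2 intermediate bins, 33.3% between an intermediate and a high bin, 11.1% between a low and an intermediate bin and 10.6% between 2 high bins. Another 5.07% (834 bins) formed a step between a low and a high bin, a share that was 1.53% with limits of 10 and 90%, and 101 bins (0.614%) lay between 2 low bins. Neighbours with few reads are placed with less certainty than the bins themselves.

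Intermediate bins differed in level and coverage with what lay beside them. Those between 2 low bins had a mean level of 28.4% and 4.38 ± 1.70 reads per listed CpG, those between 2 intermediate bins 48.0% and 4.27 ± 1.53, and those between 2 high bins 68.7% and 3.32 ± 0.986 (SD over bins). For low bins the mean reads per listed CpG were 4.44 ± 1.64 between 2 low bins and 4.07 ± 1.46 between a low and a high bin. The intermediate bins between 2 high bins thus had a mean close to that of high bins between 2 high bins, 3.46 ± 0.951. These means were not matched on CpG count. Low bins held a mean of 16.2 listed CpGs between 2 low bins and 15.0 between a low and a high bin.

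The surroundings also differed in CpG content. A neighbouring bin had a median of 11 listed CpGs beside low bins, 7 beside intermediate bins and 6 beside high bins. A neighbour with over 20 listed CpGs lay beside 59.2% of low, 8.75% of intermediate and 1.57% of high bins, so most low bins lay directly beside a denser bin. Another 21.7% of low bins, 3598 in all, had no such dense bin within 20 bins on either side, as did 69.3% of intermediate and 71.0% of high bins. Of the bins beside a dense bin, 75.9% were low. The low share was 28.9% at 2 to 4 bins from a dense bin, 8.99% at 5 to 20 bins and 6.42% beyond 20 bins. The ratio of low to high reads per listed CpG at matched CpG counts was 1.22 ± 0.066 beside a dense bin, 1.24 ± 0.080 at 2 to 4 bins, 1.17 ± 0.090 at 5 to 20 bins and 1.20 ± 0.056 beyond, above 1 on 19 of 19 autosomes in each class.

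Averaged over positions, low bins sat in a trough of methylation. The pooled level was 6.16% in the bin, 7.90% at 500 bp to its left, 13.7% at 1000 bp, 34.3% at 2000 bp and 51.0% at 5000 bp. Around intermediate bins it was 51.8% in the bin, 48.9% at 500 bp to the left and 68.1% at 5000 bp, so the nearest bins were, pooled over their reads, slightly lower than the bin itself. Around high bins it was 93.4% in the bin, 90.1% at 500 bp and 74.8% at 5000 bp. Coverage in low bins was below that beside them, with 4.27 reads per listed CpG in the bin against 4.76 at 500 bp to the left. The mean number of listed CpGs was 15.6 in low bins against 17.7 in the bins to the left. The neighbours ranged widely, with a median of 11 CpGs over both sides and 31.0% of them over 20, so the higher mean came with a dense minority.

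**Figure D3:**
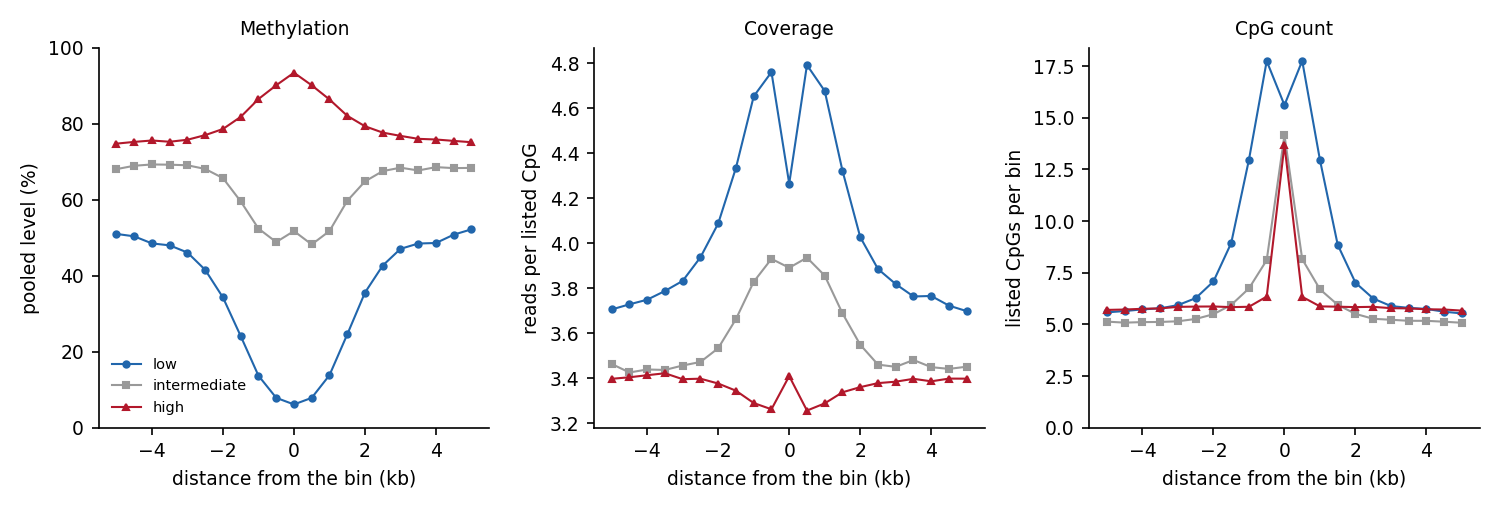
Pooled methylation level (%), reads per listed CpG and listed CpGs per bin, each against the distance from bins of 12 to 20 CpGs (kb), for low, intermediate and high bins; the coverage axis does not start at 0. Levels around low bins climb from 6.16% to 51.0% over 5000 bp to the left, and the low bins have a lower mean number of listed CpGs and fewer reads per listed CpG than the bins directly beside them.

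Runs of one state were counted only over bins of 12 to 20 CpGs, so a run also ended where the CpG count left that range. Of the neighbouring bins, 17.5% beside low, 15.2% beside intermediate and 10.2% beside high bins had 12 to 20 CpGs. The length of a run therefore does not give the extent of a state. A bin with no bin of 12 to 20 CpGs and the same state directly beside it made up 75.1% of low, 79.7% of intermediate and 83.6% of high bins, and the longest runs were 7 low, 6 intermediate and 8 high bins. The longest low run, at chr7:57163001-57166500, held 117 CpGs with 572 reads at 5.94% (4.28 to 8.19%) and 4.89 reads per CpG. The start of Slc6a5, a glycine transporter gene, was matched inside it. The next, at chr3:96136001-96139000, spanned 6 bins with a level of 4.98%, and had 5.22 reads per CpG. The longest high run, at chr8:123622001-123626000, held 118 CpGs with 421 reads at 98.3% (96.6 to 99.2%) and 3.57 reads per CpG, and the next, at chr10:69452001-69455500, had a level of 96.5% and 3.35 reads per CpG.

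In intermediate bins, most CpGs with at least 5 reads were themselves intermediate. Of 125679 CpGs with at least 5 reads in intermediate bins, 74.9% were intermediate, 12.4% low and 12.7% high. In low bins 87.2% of such CpGs were low and 12.7% intermediate, and in high bins 84.0% were high and 16.0% intermediate. The reads of these same CpGs set the state of the bin, so the likeness of CpG and bin was in part built in. At 5 reads, a single methylated or a single unmethylated read is enough to make a CpG intermediate. When the CpGs of a bin were split in order into a left and a right part of at least 10 reads each, the levels of the parts differed by a median of 5.05 points in low, 16.0 points in intermediate and 5.19 points in high bins. Both parts were intermediate in 17575 of 25772 intermediate bins (68.2%). The parts differed by 50 points or more in 995 of them (3.86%, 3.63 to 4.10%), and 74 bins had a low part beside a high part. With few reads per part, part of these differences is counting error, which is wider near 50% than near the ends.

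Single bins show these patterns, and for each state they were named among bins in which no CpG exceeded 19 reads. The intermediate bin of this kind with the most reads, at chr10:118297001-118297500, had 92 of 229 reads methylated (40.2%, 34.0 to 46.6%) on 19 CpGs. Along it, 1 of 6 reads was methylated at its first CpG, 8 of 18 and 9 of 15 at CpGs in the middle and 1 of 10 at the last, and its neighbours had 13.1% before it and 22.7% after it. At chr13:13018001-13018500, 168 of 216 reads were methylated (77.8%, 71.8 to 82.8%), with 44.4 to 100% at single CpGs. At chr14:33649001-33649500, 60 of 213 reads were methylated (28.2%, 22.6 to 34.6%), with 7.14 to 61.5% at single CpGs. In each of the 3, methylated and unmethylated reads were found along the whole bin.

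Some intermediate bins with many reads were steps between a low and a high bin. At chr2:24950001-24950500, 225 bp from the start of Noxa1, an activator of an NADPH oxidase, 53 of 168 reads were methylated (31.5%, 25 to 38.9%). It lay between a bin of 90.6% and one of 5.77%, and the reads per CpG followed this order, with 3 of 3 methylated at the first CpG, 5 of 6 at a CpG near it, 4 of 19 towards the other end and 2 of 11 at the last. At chr2:155834501-155835000, 737 bp from the start of Ergic3, a gene of the early secretory pathway, 95 of 152 reads were methylated (62.5%, 54.6 to 69.8%) between bins of 6.40% and 98.4%. The third such step, at chr1:43089001-43089500, had 65 of 148 reads methylated (43.9%, 36.2 to 52.0%) between bins of 90.5% and 17.6%. Along these last bins the CpGs were less ordered. At the bin near Ergic3, in order of position, 6 of 7, 2 of 8 and 10 of 10 reads were methylated at single CpGs, and 8 of 11 at the last. On chromosome 1, 6 of 7, 1 of 6 and 5 of 10 were methylated, and 2 of 8 at the last CpG.

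Among intermediate bins between 2 intermediate bins, the one with the most reads was at chr19:53150501-53151000, where the starts of the long non-coding RNA genes 1700054A03Rik and Gm30234 were matched. It had 55 of 237 reads methylated (23.2%, 18.3 to 29.0%), with 51.4% before it and 40% after it. At chr5:108259001-108259500, with the start of Ube2d2b, a ubiquitin-conjugating enzyme gene, 52 of 195 reads were methylated (26.7%, 20.95 to 33.3%). At chr19:57571501-57572000, 61 of 192 reads were methylated (31.8%, 25.6 to 38.7%), and each of its 14 CpGs lay between 14.3 and 50%. These 3 bins held 1, 3 and 6 further CpGs over the limit of 19 reads, which were left out of these values.

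Among low bins in which no CpG exceeded 19 reads, the 3 with the most reads each lay beside a dense bin. At chr4:8165501-8166000, 5 of 230 reads were methylated (2.17%, 0.932 to 4.99%), and the next bin held 34 CpGs at 1.57%. At chr16:20141501-20142000, 365 bp from the start of Yeats2, a gene for a histone reader, 5 of 228 reads were methylated (2.19%, 0.940 to 5.03%). The bin before it held 73 CpGs at 0.671% and the bin after it 5 CpGs at 42.9%. At chr5:139296501-139297000, 7 of 226 reads were methylated (3.097%, 1.51 to 6.25%), 467 bp from the start of Gm5294. Of the 8 low bins between high bins, the 3 with the most reads had 7 of 61 reads methylated at chr7:90871001-90871500 (11.48%, 5.67 to 21.8%), 5 of 49 at chr10:126306501-126307000 (10.2%, 4.44 to 21.8%) and 8 of 43 at chr1:64492501-64493000 (18.6%, 9.74 to 32.6%). In each of these 3 the interval reached above 20%, so at this depth the low state of each was not certain.

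The 3 high bins with the most reads, again with no CpG over 19 reads, were nearly free of unmethylated reads. At chr14:92489001-92489500, 158 of 159 reads were methylated (99.4%, 96.5 to 99.9%), at chr8:46110001-46110500, 153 of 156 (98.1%, 94.5 to 99.3%), and at chr17:66011001-66011500, 145 of 146 (99.3%, 96.2 to 99.9%). They had 8.37, 8.21 and 8.59 reads per CpG, and the 3 low bins named above had 11.5, 11.4 and 11.3. Both sets were chosen by their reads, from unlike numbers of bins, so these values do not compare the states.

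CpGs were spaced less evenly in low bins than in bins of the other states, with a shorter median distance also at the same count. The median over bins of the median distance between neighbouring listed CpGs was 17.5 bp in low bins and 21 bp in both intermediate and high bins. At 12 CpGs it was 22 bp in low bins and 24 bp in both others, and at 20 CpGs it was 14 and 15 bp. The span from first to last CpG was alike, with medians of 411, 415 and 412 bp in low, intermediate and high bins at 12 CpGs. At 20 CpGs the spans were 443, 443 and 445 bp. The median largest distance was 116, 112 and 114 bp at 12 CpGs, and 90, 82 and 82 bp at 20 CpGs. Distances of up to 10 bp made up a mean of 33.9% of the distances within low bins, 28.4% within intermediate and 28.5% within high bins. In the same order they made up 28.0%, 24.7% and 25.7% at 12 CpGs, and 41.5%, 37.9% and 37.7% at 20 CpGs. Runs of 5 consecutive distances that recurred in at least 10 of the bins, 79 runs in all, were found in 0.822% of low (0.695 to 0.971%), 1.60% of intermediate (1.46 to 1.76%) and 2.29% of high bins (2.16 to 2.43%). Of these 79, 67 had even distances throughout. The most frequent was 6 CpGs each 2 bp after the last, an uninterrupted CGCGCG run, in 649 bins on 19 autosomes, of which 50 were low, 135 intermediate and 464 high (71.5%). The next were the same run with a distance of 4 bp at its start (208 bins, 71.2% high) and at its end (197 bins, 78.2% high), level with a run of 4 bp distances (197 bins, 61.9% high). Bins with a recurrent run had fewer reads per listed CpG than bins without, 3.33 against 4.24 in low, 3.02 against 3.87 in intermediate and 2.54 against 3.43 in high bins, and the cause was not tested.

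To see which bins held gene starts, the CpG spacing of 31396 RefSeq promoter windows was matched to the table. Of 17846 windows with at least 6 CpGs, 15732 were matched (88.2%), for 13465 genes on 18 autosomes, since the promoter table used held no window for chromosome 18. The start of 2752 windows lay in 2497 of the bins. A start lay in 9.95% of low bins (9.49 to 10.4%), 2.51% of intermediate bins (2.33 to 2.71%) and 0.535% of high bins (0.472 to 0.606%). The share was 0.373% over all autosomal bins outside chromosome 18. Only windows with at least 6 listed CpGs could be matched, and 96.8% of all autosomal bins held 1 to 11 listed CpGs. The share over all bins thus leaves out starts in CpG-poor windows and is not a like background. Within 4 bins of a start lay 51.4% of low, 11.3% of intermediate and 3.02% of high bins.

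Bins with a start were more often low at every CpG count. Of bins with a start 64.0% were low, 26.2% intermediate and 9.85% high, against 16.9% low, 29.7% intermediate and 53.4% high among 85634 bins without. At 12 CpGs 35.8% of bins with a start and 7.96% of bins without were low, and at 20 CpGs 86.7% and 50.7% in the same order. The ratio of low to high reads per listed CpG at matched counts was 1.16 ± 0.144 with a start and 1.25 ± 0.043 without (SD over 18 autosomes), values that differ by less than the first spread. With a start, the means over matched counts were 4.06 in low, 4.22 in intermediate and 3.51 in high bins. Without a start they were 4.28, 4.02 and 3.42, so intermediate bins were above low bins only with a start. Of the 15660 matched windows whose start lay in a bin with at least 10 reads, 83.8% had their start in a low, 10.6% in an intermediate and 5.65% in a high bin.

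**Figure D4:**
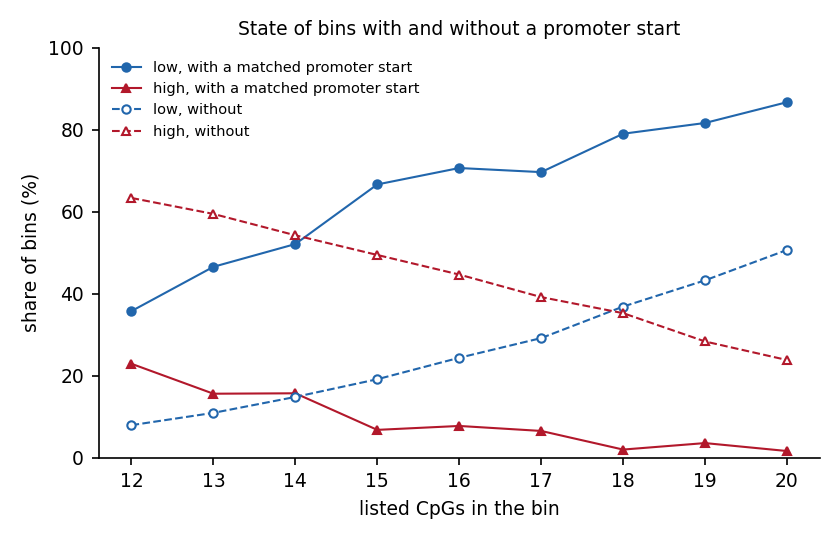
Share of bins in the low and high state (%) against the listed CpGs per bin, for bins with a matched promoter start (filled points) and without (open points). The low share is 35.8% with and 7.96% without a start at 12 CpGs, and 86.7% with and 50.7% without at 20.

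The promoter sequences differed in composition with the state. The 300-base windows had a mean G+C content of 56.1% in low, 53.6% in intermediate and 53.0% in high bins, and a CpG observed over expected ratio of 0.592, 0.483 and 0.464 in the same order. Of the CpGs in these windows, 91.7% were listed in low, 95.6% in intermediate and 95.6% in high bins, so some bins at promoters held more CpGs than were counted. The part of base composition in the read difference was not tested. Protein-coding genes supplied 1809 of the windows, with 75.3% in low, 20.01% in intermediate and 4.70% in high bins. Long non-coding RNA genes supplied 943, with 44.6% in low, 37.1% in intermediate and 18.2% in high bins.

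Genes of the germ line were listed by their roles to see where their starts lay, and the lists were chosen after the table had been seen. A list of 32 genes was named for meiosis and the piRNA pathway, and also held other germ cell genes such as Sohlh1, Sohlh2 and Tex101. Of the 32 genes, 29 had a matched start. For 7 of these it lay in the bins, with 6 genes in intermediate bins and 1 in a low bin. The median level of their 8 windows was 37.2%, against 6.12% for all 2752 windows, of which 64.8% lay in low and 25.9% in intermediate bins. Sohlh1 and Sohlh2, transcription factors of early germ cells, had bin levels of 36.3% (26.6 to 47.2%, 80 reads) and 49.02% (35.9 to 62.3%, 51 reads). Hormad2, a protein of meiotic chromosome axes, had 48.1% (35.4 to 61.1%, 54 reads). The PIWI genes Piwil1 and Piwil4 had 39.1% (30.5 to 48.4%, 110 reads) and 70.6% (53.8 to 83.2%, 34 reads). The Piwil1 sequence shown above begins before this bin and ends at the base before the start. Tex101, a germ cell surface protein, had 38.4% (29.9 to 47.6%, 112 reads). Mlh3, which acts in mismatch repair and crossing over, lay in the low bin, with 16.2% (9.53 to 26.2%, 74 reads), an interval that crosses the limit.

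Of 25 genes of spermatid and sperm structure, 10 had a matched start, and for 5 of these it lay in the bins, with 4 genes in intermediate bins and 1 in a low bin. Tnp1, transition protein 1, which takes the place of histones in spermatids before protamines do, had a bin level of 52.2% (40.6 to 63.5%, 69 reads). H1f7, a linker histone of spermatids, had 27.9% (20.7 to 36.4%, 122 reads), and Izumo1, needed for fusion of sperm and egg, had 35.7% (23.0 to 50.8%, 42 reads). Of the tektins, filament proteins of the flagellar axoneme, Tekt1 had a bin level of 7.69% (4.72 to 12.3%, 195 reads) and Tekt2 22.5% (14.7 to 32.8%, 80 reads), an interval that crosses the limit. The 3 matched Tekt2 windows had 29.4%, 18.2% and 13.4%, and the interval of the last, 7.66 to 22.4%, overlaps that of the Tekt1 window, 2.61 to 9.08%.

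The other lists touched the bins once each. Nobox, an oocyte homeobox factor, had a bin level of 35.1% (24.0 to 48.1%, 57 reads). It was 1 of 6 oocyte genes with a matched start, from a list of 16. Kdm2b, a histone demethylase that binds unmethylated CpGs, had 2.35% (0.648 to 8.18%, 85 reads), and was 1 of 15 genes of DNA methylation and silencing with a matched start, from a list of 20. Starts that were not matched may also lie in the bins. Over all densities, 39.4% of 33 windows of the meiosis and piRNA list, 53.3% of 15 windows of the spermatid list, 42.9% of 7 windows of the oocyte list and 95% of 20 windows of the silencing list had their start in a low bin, against 83.5% of all 15732 matched windows. The median window levels were 27.6%, 6.19%, 29.6% and 1.90% in that order, and 2.07% for all matched windows. These are values over windows and not over genes: the windows came from 29, 10, 6 and 15 genes in that order. In the spermatid list Odf2 and Tekt2 each supplied several windows, and the median of 6.19% is the level of an Odf2 window.

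**Figure D5:**
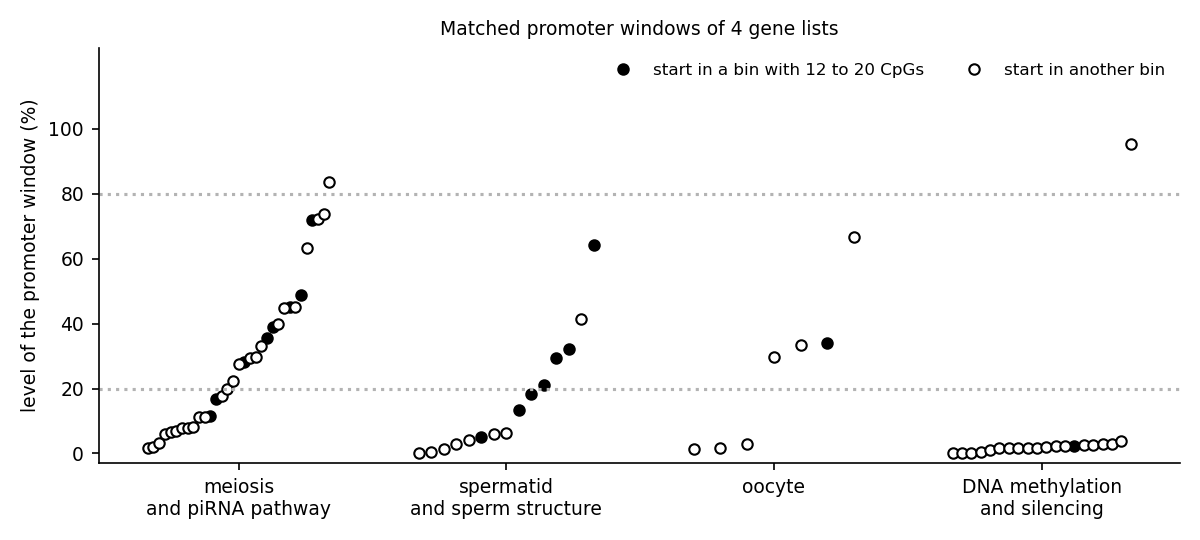
Methylation level of each matched promoter window (%) for 4 gene lists, ordered by level within a list, with filled points for starts in bins of 12 to 20 CpGs and dotted lines at 20 and 80%. The windows of the silencing list lie near 0 apart from 1, while those of the meiosis and piRNA list are spread from near 0 to above 80%.

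For each state, 3 protein-coding windows were named by a rule chosen after the data had been seen: the most reads in the window, among windows that lay whole in 1 bin with all CpGs listed and none over 19 reads. Beside Hydin, the low ones were Pla2g7, a phospholipase gene, with 7 of 118 reads methylated (5.93%, 2.90 to 11.7%), and Lrif1, a nuclear receptor interacting factor, with 3 of 110 (2.73%, 0.932 to 7.71%). Beside S100z, the intermediate ones were 2410137M14Rik, with 29 of 88 reads methylated (33.0%, 24.0 to 43.3%), and Prss38, a serine protease gene, with 27 of 78 (34.6%, 25 to 45.7%). Beside Itga9 and Zap70, the high one was Dop1b, with 69 of 83 reads methylated (83.1%, 73.7 to 89.7%), an interval that reaches below 80%. The 3 low windows had 6.94 to 11 reads per CpG, the 3 intermediate windows 5.25 to 8 and the 3 high windows 5.78 to 6.92. The windows were chosen by their reads, so these values do not compare the states.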

How the data were processed

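One bisulfite library of nucleosome-associated DNA from mouse sperm was used. The deposited table gives, for each listed CpG, its position and the counts of methylated and of all reads, as the authors made them. Its positions lie at least 2 bp apart, so no CpG has a separate entry for each strand. Whether the counts pool the reads of both strands is not shown by this. Bowtie and the mm9 build are named in the submitters' processing notes. How reads were trimmed and aligned after conversion, whether duplicates were removed and how complete conversion was is not given in the sources used here. The table lists 15544856 CpGs with at least 1 read, 60995624 CpG reads and a median of 3 reads per CpG; 0.0815% of autosomal CpGs had over 19 reads and were left out.

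Counts were pooled in bins, and shares carry 95% Wilson intervals, which cover counting error only. Ratios of reads were formed at each exact CpG count and averaged over the 9 counts. A neighbour needed at least 10 reads, as did each part when a bin was split in order into a left and a right part. Promoter windows (250 bases before and 50 after a start) were placed by CpG spacing: at least 6 listed CpGs, no listed CpG outside the window's CpGs, at least 60% listed and a margin of 3 over the next best place; 99.8% kept their distance to a neighbouring promoter. Bins were named by reads: the 3 with the most reads in each state, among bins with no CpG over 19 reads, the 3 with the most reads in each neighbour class described, none on chromosome 18, and the 2 longest low and high runs. Members, lists and rules were chosen with earlier results of these data known. Other limits on reads, bins, thresholds, neighbours and spacing were tried. Scripts were tested on simulated data and used Python 3.11.15, numpy 2.4.6, pandas 2.3.3, scipy 1.17.1 and matplotlib 3.10.9.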

Additional observations from a re-analysis of the deposited data

How the results depend on the processing

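With 1 library, no result had a test. Only the ratio of low to high reads has a direction, and it stayed above 1 under every alternative setting. Of 47 alternative values, 26 stayed within the spread of a value or, for the number of bins, within 1.5 times, and 21 moved further. The number of bins, 91092, was 64937 with at least 40 reads per bin. The ratio of low to high reads per listed CpG, 1.24, was 1.20 with the median over bins and 1.23 to 1.25 under the other settings. Among these were state and reads taken from alternate CpGs of a bin (1.24). Reads of CpGs close together were alike, so these 2 sets of CpGs are not independent. Means that allow for CpGs without a read also gave 1.24, with bins still matched on listed CpGs. These means were estimated from the read counts and not from CpGs counted in a sequence. In promoter windows, where the sequence was known, counting unlisted CpGs brought low and high reads per CpG closer together, as given above. Limits of 10 and 90% gave 13.7% low and 39.1% high bins, 26.4% of low bins between low bins, 51.9% of high bins between high bins and 1.53% of intermediate bins between a low and a high bin. Those with at least 40 reads gave 21.6% low and 47.7% high bins, and 3.11% of intermediate bins with left and right parts 50 points apart; at least 20 reads per part gave 2.56%. Low bins between low bins were 42.6% and high bins between high bins 78.5% with at least 20 reads per neighbour, and 37.4% and 75.8% with at least 5 listed CpGs per neighbour. Recurrent spacing was found in 0.217% of low and 1.04% of high bins for runs of 7 distances, and in 0.574% of low and 1.68% of high bins for runs in at least 50 bins. The low share among bins with a promoter start, 64.0%, was 61.9% with at least 80% of CpGs listed, 68.0% with at least 8 listed CpGs and 74.9% for protein-coding genes; these 3 settings were chosen after seeing the data. The cause of these shifts was not tested. CpGs counted in the genome sequence, in place of listed CpGs, were planned and not run, because no sequence of the build was used. No paired analysis was possible because there was 1 library. Depth, a median of 3 reads per CpG, limits single CpGs and sparse neighbours most.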

Other observations

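Short letter patterns were counted in the 300-base promoter windows, on both strands, as a description. GGGCGG, the core letters of a GC box, was found in 49.9% of windows of low, 26.0% of intermediate and 12.8% of high bins, against 61.8% of matched windows and 36.0% of all 31396 windows. CCAAT was found in 39.6% of low, 33.7% of intermediate and 29.96% of high windows, against 35.3% of matched windows and 37.3% of all. TATAAA was found in 8.19% of low, 10.96% of intermediate and 12.8% of high windows, against 6.39% of matched windows and 13.6% of all, and CACGTG in 9.25%, 11.2% and 9.73% in the same order, against 10.3% of matched windows and 7.14% of all. Only matched windows could be placed in a bin. A match says only that these letters are present. GGGCGG itself holds a CpG, and windows of low bins held more CpGs, a median of 13 against 9.5 in intermediate and 9 in high bins.

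Promoter windows of zinc finger genes named Zfp lay in the bins 69 times, 64 of them in low, 5 in intermediate and 0 in high bins. Those of solute carrier genes named Slc lay there 57 times, 38 in low, 16 in intermediate and 3 in high bins. Predicted genes named Gm lay there 755 times, 303 in low, 298 in intermediate and 154 in high bins. Of all 2752 windows in the bins, 64.8% lay in low, 25.9% in intermediate and 9.34% in high bins. Over bins of every density, 95.4% of Zfp, 84.1% of Slc and 48.9% of Gm windows lay in low bins, against 83.5% of all matched windows. These prefixes were chosen after the table had been seen.

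Read numbers of CpG pairs in the same bin were alike at short distances in every state. Across pairs 1 to 20 bp apart Pearson's r was 0.857 in low, 0.849 in intermediate and 0.822 in high bins, and across pairs 141 to 160 bp apart it was 0.126, 0.120 and 0.0176 in the same order. Pairs share bins and reads, so these are descriptions across CpGs of 1 library.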
